A study of Homo sapiens with 4 samples.

Results

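The cytosolic ribosomal protein genes were taken as every protein-coding row of the gene tables named RPL or RPS with a number and at most an A, X or L suffix, plus the P-stalk genes RPLP0, RPLP1 and RPLP2 and the gene RPSA. This rule found 84 of 58735 genes, 52 of the large subunit and 32 of the small subunit. The cells were HCT116, an established human colon cancer line, carrying an shRNA against RBM25 (RBM25_sh, 2 libraries) or a control shRNA (control_sh, 2 libraries). RBM25 encodes an RNA-binding splicing regulator, and the series title concerns its depletion and the alternative splicing of MNK2. The labels give no time after shRNA delivery, no shRNA sequence and no number of shRNAs or clones. They also do not say that replicates came from separate cultures, so every p-value from all libraries rests on the spread between 2 libraries a group, possibly a technical one. With a library left out, a gene's spread comes from the 2 libraries of the other group alone.

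A ribosome holds 1 copy of most of its proteins, built on the rRNA of a large and a small subunit. The mRNAs of these proteins are among the most abundant in growing cells, and many begin with a 5′ terminal oligopyrimidine tract (5′ TOP), a C followed by further pyrimidines, through which mTOR signalling sets their translation. A few genes have paralogs, near copies whose protein can stand in for the parent or has taken another role.

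Starts of the 4 tested paralogs, of 3 of their parents and of 6 members at the ends of the fold changes are shown so that the presence or lack of a 5′ TOP tract can be seen. Each line has 10 bases before and 20 bases from the RefSeq transcript start (GRCh38.p14, sense strand), and capitals mark the first transcribed base and the unbroken run of C or T after it.
RPS27L: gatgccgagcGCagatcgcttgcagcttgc
RPS27: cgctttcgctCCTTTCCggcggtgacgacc
RPL7L1: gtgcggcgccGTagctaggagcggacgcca
RPL22L1: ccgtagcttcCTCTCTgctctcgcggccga
RPL22: cgctcacctcCCTTTCTaactccgctgccg
RPL26L1: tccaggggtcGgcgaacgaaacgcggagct
RPL26: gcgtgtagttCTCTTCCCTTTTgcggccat
RPL21: ccgcctctttCCTTTCggccggaaccgcca
RPL34: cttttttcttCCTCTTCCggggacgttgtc
RPL6: gtatcctcagTgaatcagaaccagaaaaag
RPL36: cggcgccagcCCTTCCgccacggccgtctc
RPS29: agcgcgcagcTggcagcggtggttgtttct
RPL41: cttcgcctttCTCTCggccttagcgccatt
For RPL26L1, RPL34 and RPL6 the first of 2 listed starts is shown. The RPS27L start, at chr15:63157458-63157487 on the minus strand, has G as its first base, whereas the RPS27 start, at chr1:153990752-153990781 on the plus strand, opens with a run of 7 pyrimidines.

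A 5′ TOP start was scored where any listed start had C as its first base and a run of at least 5 pyrimidines, read on the transcribed strand only. Of the members, 67 had a RefSeq promoter entry, and 47 of these (70.1%) had such a start, against 1357 of 27238 other genes (4.98%). With the run allowed to begin within 5 bases of the listed start, 54 of 67 members (80.6%) and 25.1% of other genes held one. Of the 5 paralogs with an entry, RPL22L1 had a 5′ TOP start, and RPS27L, RPL7L1, RPL26L1 and RPL10L did not. Of the 62 other members with an entry, 46 had one, and RPS29 and RPL6 are among those without. The median log2 fold change of RBM25_sh over control_sh was 0.08 for the 47 tested members with a 5′ TOP start and 0.16 for the 19 tested members without one. The letters describe these windows only, and say nothing of use of the tract in these cells.

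The targeted gene was checked first. RBM25 had 44.0 and 35.7 CPM in RBM25_sh libraries, against 155 and 115 CPM in control_sh libraries, where CPM (TMM-scaled) are counts relative to the library size. The groups did not overlap, and the log2 fold change was −1.76 ± 0.30 (SE; edgeR quasi-likelihood test, adjusted p = 0.0195). Library totals were 15528274 and 16335555 counts for RBM25_sh and 15528869 and 16982663 counts for control_sh. Of the colon epithelial markers, EPCAM, CDH1, KRT8, KRT18, KRT19 and CDX2 were present in both groups, whereas CDX1 had no counts and VIL1 and LGALS4 had at most 5 counts in any library. The blood cell markers PTPRC, CD3E and CD68 had at most 1 count in any library. Of the fibroblast collagens, COL1A1 had 553 and 738 counts in RBM25_sh libraries and 618 and 1111 counts in control_sh libraries, and COL3A1 had 9 and 12 counts in RBM25_sh libraries and 1 and 2 counts in control_sh libraries.

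The first question was whether ribosomal protein mRNAs as a group differed after RBM25 knockdown. None of the 81 tested members passed an adjusted p of 0.05, where 3.05% of all 16091 tested genes did. By edgeR, 1 member, RPS27L, had an unadjusted p under 0.05, where 21.4% of all tested genes did, and DESeq2 called that gene alone, where 2.4% of all tested genes were called higher. The median log2 fold change was 0.08 over the 81 members, 0.08 over the 49 large subunit genes tested and 0.07 over the 32 small subunit genes, and −0.04 over all tested genes. Its sign turned with library totals as the only scaling (−0.039, with all genes at −0.15) and without control_sh replicate 1 (−0.19), and it was 0.49 without control_sh replicate 2. Without control_sh replicate 1, 10 members were called, 1 higher, where 5.1% of all tested genes were, and 9 lower, where 8.82% were, a share near the background. Without control_sh replicate 2, 4 members were called, all higher, where 2.01% of all tested genes were. Of the 81 members, 51 had a log2 fold change above 0 and 30 below 0, over a range of −0.57 to 1.10. Calls with a control_sh library left out rest on the spread between the RBM25_sh libraries alone. A p that misses the threshold does not show equal levels, and the median SE of a member's log2 fold change was 0.30.

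**Figure D1:**
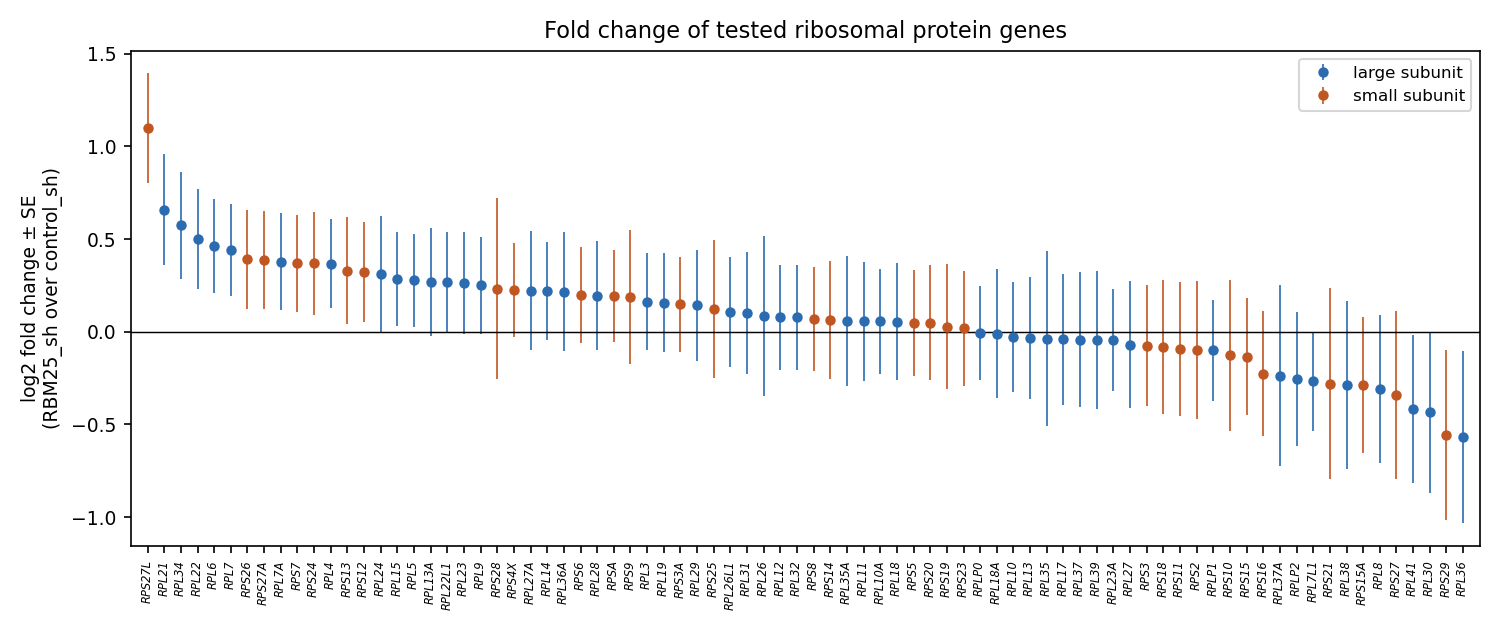
Log2 fold change (vertical axis, RBM25_sh over control_sh, ± SE) of 80 of the 81 tested ribosomal protein genes, ordered from highest to lowest and coloured by subunit. Both subunits spread over the whole order, and RPS27L at 1.10 stands apart at the top.

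Together the members took 5.48% and 5.94% of all counts in RBM25_sh libraries, against 4.42% and 7.16% in control_sh libraries. The RBM25_sh libraries thus lay between the control_sh libraries, and the difference of means was −0.083 percentage points (exact permutation test, two-sided, p = 1, where 0.333 is the smallest p that 2 libraries against 2 allow). Small subunit genes made up 36.2% and 36.8% of the members' counts in RBM25_sh libraries and 35.9% and 37.7% in control_sh libraries. The balance between subunits therefore differed by less than the spread between the control_sh libraries. In bulk RNA, less RNA per cell and fewer cells of a kind cannot be told apart, and all levels are relative to the library's total.

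The control_sh libraries were on either side of the RBM25_sh libraries for most members. In 46 of 81 members the lowest of the 4 libraries was control_sh replicate 1 and the highest control_sh replicate 2, an order found in 6.58% of all tested genes. Control_sh replicate 2 exceeded control_sh replicate 1 in 74 of 81 members, with a median log2 ratio of 0.68. Between the RBM25_sh libraries, replicate 2 was higher in 48 of 81 members, with a median log2 ratio of 0.06. Over all tested genes these medians were 0.01 between RBM25_sh libraries and 0.0017 between control_sh libraries. Taken without sign, the log2 ratio between replicates had a median of 0.19 over members and 0.32 over all tested genes between RBM25_sh libraries, and of 0.68 over members and 0.47 over all tested genes between control_sh libraries.

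The members with the shortest coding sequences differed most between the control_sh libraries. For the 39 members with a coding sequence under the median of 453 bases, the median log2 ratio of replicate 2 to replicate 1 was 0.01 between RBM25_sh libraries and 0.94 between control_sh libraries. For the 42 longer members it was 0.09 between RBM25_sh libraries and 0.49 between control_sh libraries. Other protein-coding genes with coding sequences under 453 bases, 829 in number, had medians of −0.0036 between RBM25_sh libraries and 0.31 between control_sh libraries. Another 4935 such genes, with longer coding sequences up to the longest member, had medians of 0.04 between RBM25_sh libraries and 0.09 between control_sh libraries. The control_sh ratio therefore lay above 0 in short and longer genes of other kinds too, at a smaller size than in the members. Across the 81 members, Spearman's rho of coding length with this ratio was 0.11 in RBM25_sh libraries and −0.49 in control_sh libraries. For the GC content of the coding sequence, rho was 0.61 in RBM25_sh libraries and 0.39 in control_sh libraries, and rho of GC content with the log2 fold change was −0.39. These are descriptions across genes that share libraries, and the coding-length split was chosen after values had been seen. The part of length and GC content in the fold changes was not tested beyond the corrections given below.

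**Figure D2:**
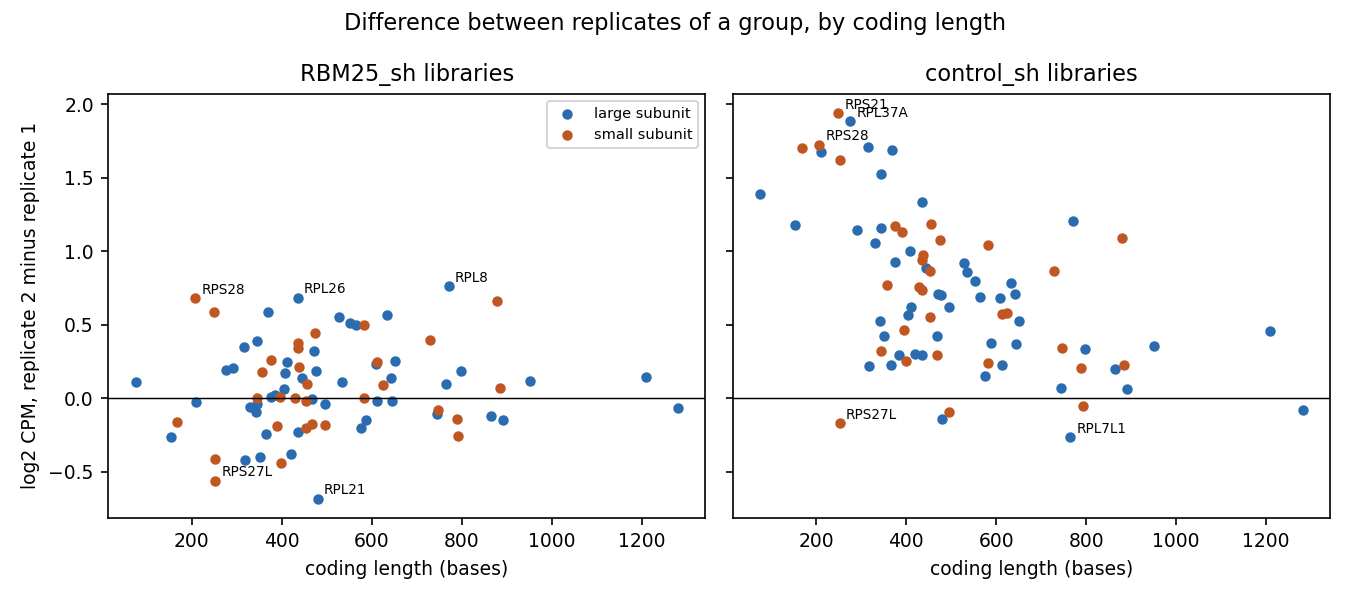
Log2 CPM of replicate 2 minus replicate 1 (vertical axis) against coding length in bases (horizontal axis) for 80 of the 81 tested members, in RBM25_sh libraries (left) and control_sh libraries (right). RBM25_sh points scatter about 0, while control_sh points lie mostly above 0 and highest among short coding sequences.

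Of the members, 21 were higher in both RBM25_sh libraries than in either control_sh library, where 23.9% of all tested genes were, so their share is near the background. One member, RPL7L1, was lower in both RBM25_sh libraries, where 27.9% of all tested genes were.

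RPS27L, on chromosome 15 (ENSG00000185088, GRCh38, 63125872 to 63158021), is a paralog of RPS27. It had 124 and 84.3 CPM in RBM25_sh libraries, against 51.5 and 45.8 CPM in control_sh libraries. Both RBM25_sh libraries exceeded both control_sh libraries. The means were 104 ± 28.2 CPM in RBM25_sh libraries and 48.7 ± 4.06 CPM in control_sh libraries (SD, n = 2 each), and the log2 fold change was 1.10 ± 0.30 (2.14-fold). The edgeR adjusted p was 0.0765, which misses the threshold. It was 0.0143 with DESeq2 and 0.00173 in edgeR after removal of each library's trend on GC content, but 0.0860 with limma-voom, 0.124 and 0.116 with limma-trend on FPKM, 0.781 without RBM25_sh replicate 1 and 0.207 without RBM25_sh replicate 2. It was 0.0153 with control_sh replicate 1 left out and 0.0632 with control_sh replicate 2 left out. It lay over 1.5 interquartile ranges above the upper quartile of the members, a bound at 0.76.

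RPL21, RPL34, RPL22, RPL6 and RPL7, all large subunit proteins, had the next highest fold changes. RPL21 had 702 and 438 CPM in RBM25_sh libraries, against 379 and 344 CPM in control_sh libraries, with a log2 fold change of 0.66 ± 0.30 and an edgeR adjusted p of 0.243. RPL34 had 468 and 354 CPM in RBM25_sh libraries, against 236 and 316 CPM in control_sh libraries, with a log2 fold change of 0.57 ± 0.29 and an edgeR adjusted p of 0.289. RPL22 had 209 and 213 CPM in RBM25_sh libraries, against 134 and 164 CPM in control_sh libraries, with a log2 fold change of 0.50 ± 0.27 and an edgeR adjusted p of 0.318. In all 3 genes the groups did not overlap, where 23.9% of all tested genes were higher without overlap, and none passed the test. The log2 fold change of RPL21 was 0.30 without RBM25_sh replicate 1 and 0.995 without RBM25_sh replicate 2, and that of RPL34 was 0.38 without RBM25_sh replicate 1. RPL6 had 1226 and 1129 CPM in RBM25_sh libraries, against 795 and 914 CPM in control_sh libraries, a log2 fold change of 0.46 ± 0.25. RPL7 had 1337 and 1245 CPM in RBM25_sh libraries, against 927 and 973 CPM in control_sh libraries, a log2 fold change of 0.44 ± 0.25. Their groups did not overlap either. The genes of this paragraph were picked by fold change in these same libraries, so the lack of overlap adds no support.

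After removal of the GC trend, edgeR called 3 members higher in RBM25_sh (RPS27L, RPL21 and RPL22), where 14.5% of all tested genes were called higher, and none lower, where 14.4% were. Their log2 fold changes in that fit were 1.03, 0.67 and 0.52. The 3 calls are below the background share. With coding length corrected as well, edgeR called RPS26 and RPS27L higher, where 11.3% of all tested genes were. RPL21 (edgeR adjusted p = 0.0831) and RPL22 (edgeR adjusted p = 0.161) were not called in that fit. With the GC trend removed and each library left out in turn, RPS27L was called in 4 of 4 fits, RPL21 in 3 and RPL22 in 2, and the count of called members ran from 2 to 69. The 69 were called without control_sh replicate 2, 68 of them higher, where 17.5% of all tested genes were, and 1 lower, where 15.1% were. Without control_sh replicate 1, 33 were called, 10 higher, where 20.3% of all tested genes were, and 23 lower, where 16.9% were. With a control_sh library left out, the spread came from the RBM25_sh libraries alone. Over members, these differed less than the control_sh libraries did (median log2 ratio without sign 0.19 against 0.68). The left-out fits and the coding length correction were chosen after values had been seen.

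At the other end of the order were RPL36, RPS29, RPL30, RPL41, RPS27 and RPL8. RPL36 had 196 and 249 CPM in RBM25_sh libraries, against 154 and 505 CPM in control_sh libraries, with a log2 fold change of −0.57 ± 0.46 and an edgeR adjusted p of 0.522. RPS29 had 135 and 121 CPM in RBM25_sh libraries, against 88.7 and 289 CPM in control_sh libraries, with a log2 fold change of −0.56 ± 0.46 and an edgeR adjusted p of 0.525. RPL41, the shortest of the members with a coding sequence of 75 bases, had 624 and 676 CPM in RBM25_sh libraries, against 480 and 1256 CPM in control_sh libraries, a log2 fold change of −0.42 ± 0.40. In these 3 genes both RBM25_sh libraries lay within the range of the control_sh libraries. RPL30, RPS27 and RPL8 had log2 fold changes of −0.44, −0.34 and −0.31. Without control_sh replicate 2 all 6 log2 fold changes were above 0, between 0.41 and 0.68. Without control_sh replicate 1 all 6 were called lower by edgeR, with log2 fold changes between −1.17 and −0.78. RPL36 lay just outside the lower quartile bound of −0.565, and RPS29 just inside it.

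**Figure D3:**
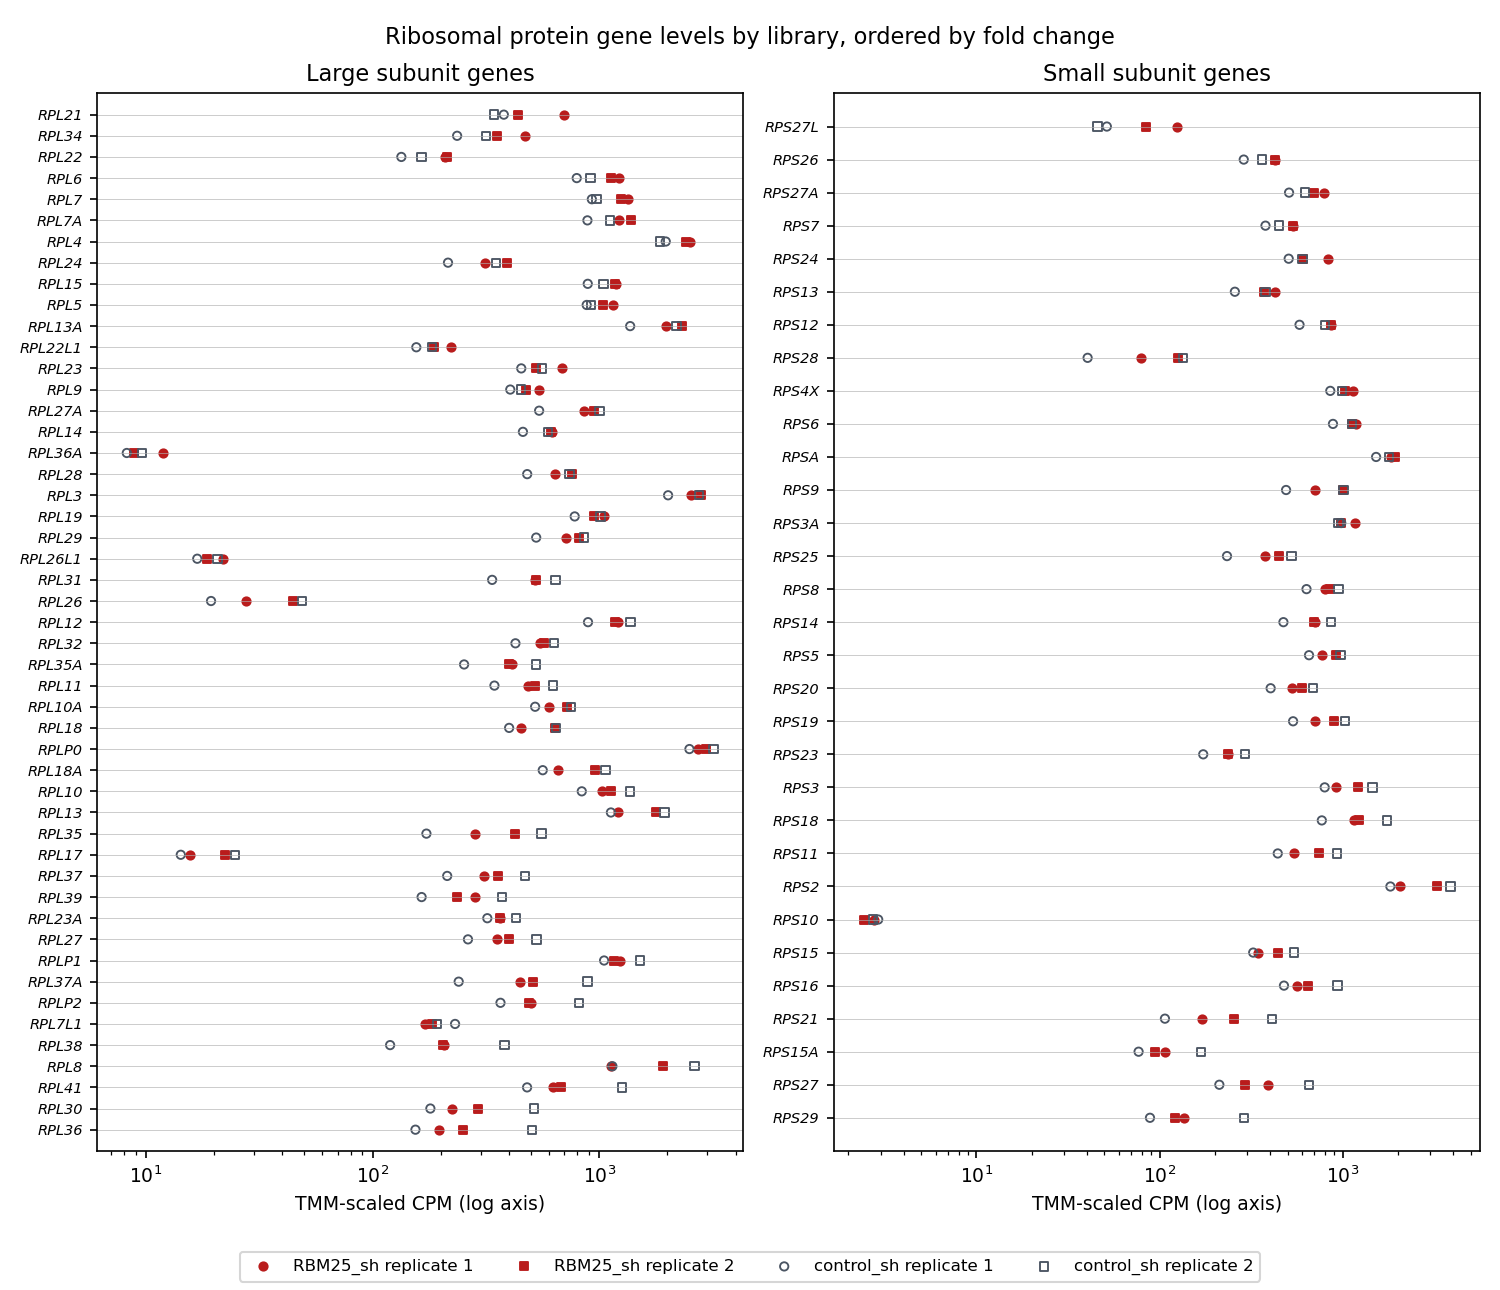
TMM-scaled CPM (log axis) of 80 of the 81 tested members in each of the 4 libraries, by subunit and ordered by log2 fold change from the top. At the top the RBM25_sh symbols lie right of the control_sh symbols, and towards the bottom they lie between control_sh replicate 1 and control_sh replicate 2.

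The members named for their role had log2 fold changes between −0.26 and 0.28. RPLP0, RPLP1 and RPLP2 form the stalk that recruits translation factors, and their log2 fold changes were −0.01 ± 0.25, −0.10 ± 0.27 and −0.26 ± 0.36. RPL5 and RPL11, which can bind MDM2 outside the ribosome, had 0.28 ± 0.25 and 0.06 ± 0.32. RPS6, the substrate of S6 kinase, had 0.20 ± 0.26. RPL10, which joins late in large subunit maturation, had −0.03 ± 0.30, and RPS19, mutated in Diamond-Blackfan anaemia, had 0.03 ± 0.34. RPSA, also called the laminin receptor, had 0.19 ± 0.25, with 1843 and 1936 CPM in RBM25_sh libraries and 1522 and 1785 CPM in control_sh libraries. Of these 9 genes, RPL5 and RPSA were higher in both RBM25_sh libraries than in either control_sh library, where 23.9% of all tested genes were.

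Paralogs were compared with their parents within each library, as the log2 ratio of their counts. RPS27L over RPS27 was −1.65 and −1.80 in RBM25_sh libraries, against −2.04 and −3.83 in control_sh libraries. The groups did not overlap, and the means differed by 1.21. RPL7L1, known for a role in large subunit assembly rather than in the finished ribosome, stood over RPL7 at −2.98 and −2.77 in RBM25_sh libraries, against −2.005 and −2.34 in control_sh libraries, a difference of −0.70. RPL22L1 over RPL22 was 0.08 and −0.19 in RBM25_sh libraries, against 0.22 and 0.16 in control_sh libraries, a difference of −0.24. These 2 pairs did not overlap either, each with the paralog lower relative to its parent. RPL26L1 over RPL26 and RPL36AL over RPL36A differed by −0.08 and −0.23, and their groups overlapped. Over the 5 pairs the two-sided exact permutation p was 0.333 for the pairs that did not overlap, the smallest the design allows, and 0.556 adjusted over the 5. RPL36AL lies outside the name rule and is given only for its pair. Without control_sh replicate 2 the RPS27L difference was 0.32, and RPS27 itself had 390 and 293 CPM in RBM25_sh libraries, against 212 CPM in control_sh replicate 1 and 653 CPM in control_sh replicate 2.

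RPL7L1 itself had 170 and 182 CPM in RBM25_sh libraries, against 231 and 193 CPM in control_sh libraries, with a log2 fold change of −0.27 ± 0.27 and an edgeR adjusted p of 0.609. RPL22L1 had 221 and 186 CPM in RBM25_sh libraries, against 156 and 183 CPM in control_sh libraries, with a log2 fold change of 0.27 ± 0.27 and an edgeR adjusted p of 0.615. RPL10L and RPL39L, best known from the testis, had no counts in any library, where a count of 0 allows up to 0.193 CPM, unscaled, in the smallest libraries. RPL3L, known from muscle, had 3 and 0 counts in RBM25_sh libraries, against 4 and 6 counts in control_sh libraries. These 3 genes were not tested.

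**Figure D4:**
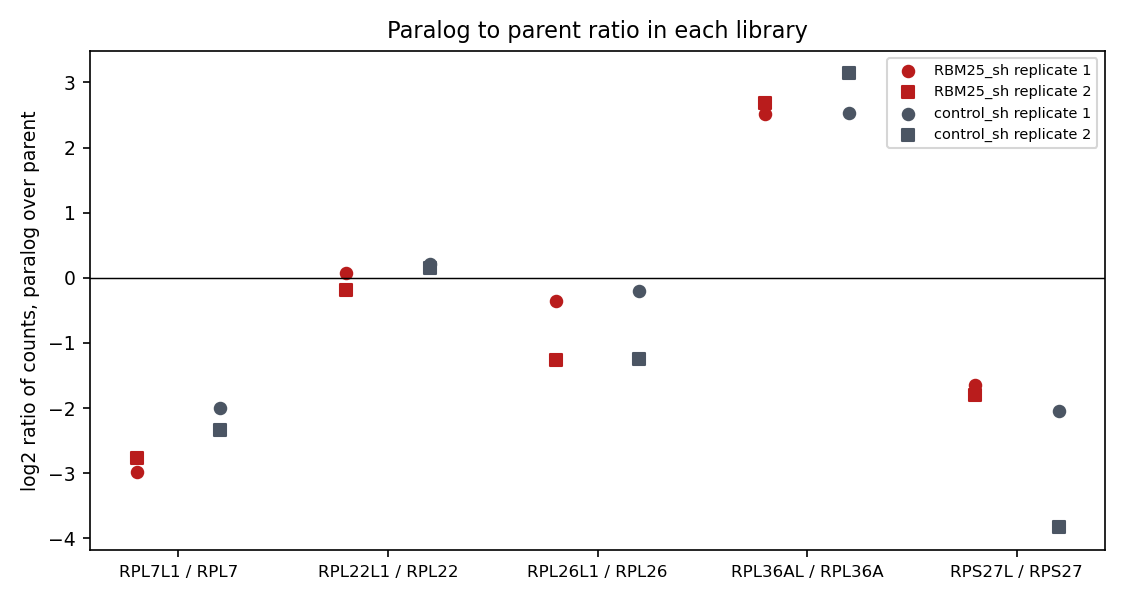
Log2 ratio of paralog to parent counts (vertical axis) in each library for the 5 pairs tested, RBM25_sh left of control_sh within each pair. The RPS27L ratio of control_sh replicate 2, at −3.83, lies far below the other 3 libraries of that pair.

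Levels between members were compared as CPM per kilobase of coding sequence, as group means. RPL41, with a coding sequence of 75 bases, was highest, at 8664 in RBM25_sh libraries and 11578 in control_sh libraries. The counts are per gene, not per coding sequence, so reads outside a short coding sequence can raise this measure. RPLP1 had 3491 and RPL13A 3521 in RBM25_sh libraries, against 3745 and 2924 in control_sh libraries. At the low end of the standard genes, RPS10 had 5.22 in RBM25_sh libraries and 5.70 in control_sh libraries. RPL36A and RPL17 had 32.6 and 34.3 in RBM25_sh libraries, against 28.0 and 35.3 in control_sh libraries. By the deposited FPKM, which use another gene length, the highest members were RPS2, RPS12, RPL13A, RPL8 and RPLP0, and RPS10 and RPL36A were the lowest of those tested. The low counts were then set against the annotation.

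Among the standard members, low counts went with coding bases inside exons of another annotated gene on the same strand, though the ranges given below overlapped. In RPL17, RPL36A and RPS10 between 92.1% and 100% of coding bases did, in RPL26 71.0%, in RPL22 59.9% and in RPS15A 54.6%. These 6 members had 5.46 to 468 CPM per coding kilobase over all libraries, with a median of 57.8. Another 70 standard members had 458 to 10121, with a median of 1388, and 1 of them, RPL13A, had any such overlap (1.31%). A standard member not reported here by name is in neither class. The overlapping genes held few counts themselves, and RPS10-NUDT3, RPL17-C18orf32 and RPL36A-HNRNPH2 had at most 15 counts in any library. EEF1G, an elongation factor gene whose whole coding sequence lies inside another gene, was listed at 0 in every library. How the counting treated reads on bases shared by genes was not given in the sources used here and was not tested. Levels of these 6 members are therefore uncertain, including the fold change and paralog ratios of RPL22, RPL26 and RPL36A. The overlap was looked up after the low counts had been seen.

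**Figure D5:**
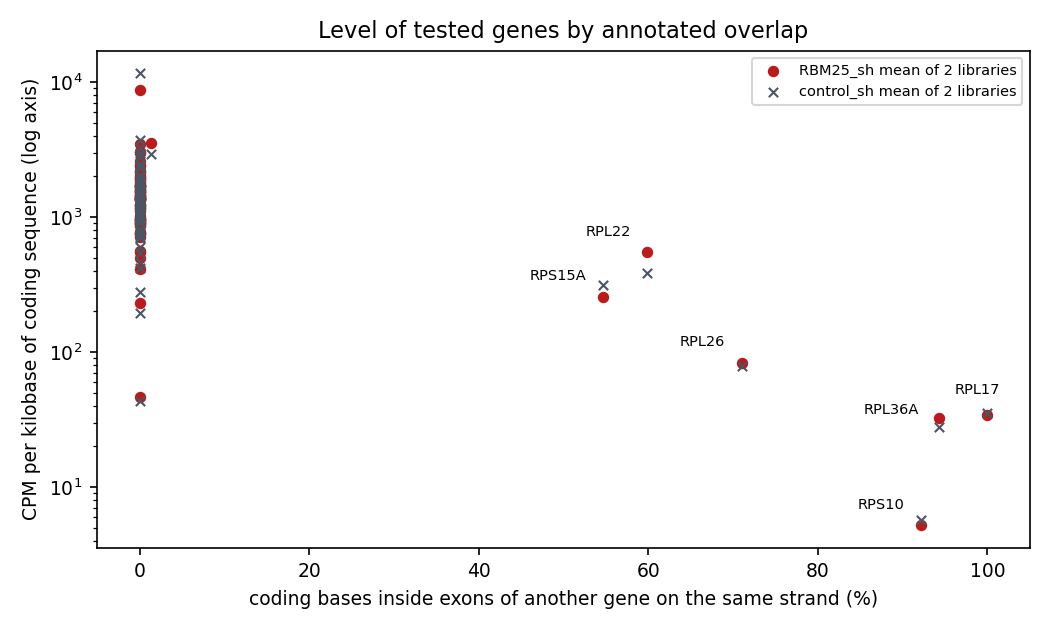
CPM per kilobase of coding sequence (log axis, group means of 2 libraries) against the percentage of coding bases inside exons of another gene on the same strand, for 80 of the 81 tested members. The 6 labelled members over 50% lie at 468 or below as means over all libraries, and the unlabelled low points at 0% are paralogs.

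Processed pseudogenes, which can share reads with their parents, were also counted. Of 1144 annotated pseudogenes named for a member, 435 had counts, and together they held 3.91% and 4.38% as many counts as the members in RBM25_sh libraries, against 4.07% and 4.21% in control_sh libraries. The ratio did not separate the groups. RPS28P7 had 3139 and 5154 counts in RBM25_sh libraries and 2629 and 9626 counts in control_sh libraries, which is 267% and 260% of RPS28 in RBM25_sh libraries and 411% and 401% in control_sh libraries. RPL9P9 reached 41.1% and 45.8% of RPL9 in RBM25_sh libraries and 49.8% and 40.4% in control_sh libraries. Summed over their pseudogenes, 9 members had pseudogene counts above 10% of their own as a mean over the libraries, namely RPS28, RPS10, RPL9, RPL26, RPS2, RPL7, RPL39, RPS7 and RPL21. For RPL26 these were 35.3% and 19.3% in RBM25_sh libraries and 32.7% and 17.05% in control_sh libraries, and for RPL21 8.43% and 9.76% in RBM25_sh libraries and 10.7% and 17.7% in control_sh libraries. The values of these 9 members are therefore uncertain where reads could be placed in either copy.

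Related genes outside the name rule were not called either. FAU, which encodes a ribosomal protein fused to a ubiquitin-like protein, had a log2 fold change of −0.20 ± 0.40, and RACK1, a small subunit scaffold, had 0.15 ± 0.25. Of 12 genes of elongation factors and other mRNAs known for 5′ TOP control, 11 were tested and none was called by edgeR, at an adjusted or an unadjusted p of 0.05. Their median log2 fold change was 0.35, with NPM1 highest at 0.61 ± 0.28 and EIF4B lowest at −0.47 ± 0.25. Of 10 ribosomal protein chaperones and importers none was called and 3 had an unadjusted p under 0.05, against 21.4% of all tested genes, with a median log2 fold change of 0.54. HEATR3, an importer partner of RPL5, had 34.0 and 29.1 CPM in RBM25_sh libraries, against 19.7 and 16.1 CPM in control_sh libraries, with a log2 fold change of 0.82 ± 0.29 and an edgeR adjusted p of 0.149. PDCD2L was lowest, at −0.36 ± 0.32. After removal of the GC trend, 6 of these 10 genes were called higher in RBM25_sh, against 14.5% of all tested genes, and none lower, against 14.4%. Of the 11 elongation factor and 5′ TOP genes, EEF1B2, EEF1D and NPM1 were then called higher and EIF4B lower.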

How the data were processed

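Total RNA of 4 HCT116 libraries was sequenced, per the labels' protocols. Cuffdiff 2.1.1, Cufflinks 2.1.1, TopHat2 2.0.9 and Bowtie2 2.0.6 are listed, with no role, in the submitters' processing notes. The counting tool, strand setting and build were not given in the sources used here. The authors deposited whole-number counts per gene and FPKM per gene. The deposited FPKM are these counts over listed gene length and a factor for each library, within 0.1%, so they served only for ranks and alternatives. All 58735 gene positions equal those of GENCODE 29 (GRCh38).

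Counts were fitted with edgeR 4.0.16 (filterByExpr, TMM, quasi-likelihood test, group as the only term, 2 residual degrees of freedom), two-sided, with Benjamini-Hochberg adjustment over 16091 genes. The SE was taken as log2 fold change over root F. The GC correction removed each library's lowess trend (span 0.3) as offsets. Coding lengths are those of 1 GENCODE transcript per gene, chosen with member lengths in view. The limit at a count of 0 is 3 counts of the library and covers counting error only. Alternatives used DESeq2 1.42.0 and limma 3.58.1. The fits were tested on simulated data with 100 2-fold changes. With a GC trend between replicates, the main fit recovered 11 of them and the GC-corrected fit 77. The simulated trend was linear in the GC content that the correction uses and equal in both groups. The gain was thus built in and does not measure recovery in these data. Without that trend each fit recovered 75. The simulated biological coefficient of variation was 0.16, below the 0.25 of these data, so recovery here may be lower. Promoter starts are from RefSeq.

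The members, the lists and the naming rule were chosen with earlier results of these data known. This rule took RBM25, called members, the 6 largest changes each way, members over 1.5 interquartile ranges outside the quartiles, the 5 highest and 5 lowest by FPKM, paralog pairs, genes named for their role, and of each list the called genes and the largest change each way. The overlap check, length split and 5′ TOP search came after values were seen. Some genes are counted in the totals over members and lists but are not reported here by name.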

Additional observations from a re-analysis of the deposited data

How the results depend on the processing

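The absence of called members and the members' median depended on single control_sh libraries. Genes called numbered 491, against 1438 with no filter, 1085 with DESeq2, 215 and 268 by limma-trend on FPKM (log2, pseudocount 1 or 0.1), 4650 after GC correction, 3812 after GC and coding length correction, 204 to 2389 with a library left out, and after GC correction 6376 (control_sh replicate 1 out), 5474 (control_sh replicate 2 out), 2496 (RBM25_sh replicate 1 out) and 2604 (RBM25_sh replicate 2 out). Members called numbered 0, against 1 with no filter or DESeq2, 3 after GC correction, 2 after GC and coding length correction, 0 to 10 with a library left out, and after GC correction 33 (control_sh replicate 1 out), 69 (control_sh replicate 2 out) and 2 (either RBM25_sh library out). The 10 came without control_sh replicate 1, 1 higher and 9 lower; without control_sh replicate 2, 4 were called, all higher. The members' median log2 fold change of 0.08 was −0.039 by library totals, a scaling that put the median of all genes at −0.15, and ran from −0.19 without control_sh replicate 1 to 0.49 without control_sh replicate 2 (−0.11 to 0.52 with GC correction). Corrections including coding length, and GC correction with a library left out, were chosen after seeing the data.

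The replicate numbers do not pair the libraries by any label, though deviations of same-numbered libraries from their group means correlated at 0.47 across genes. With a replicate block, 5722 genes and 5 members were called. All 5 were higher, where 16.4% of all tested genes were called higher and 19.1% lower. With GC correction as well, 6440 genes and 11 members were called, 10 higher (all tested genes 20.6%) and 1 lower (19.4%). With GC and coding length correction as well, 6711 genes and 14 members were called, 11 higher (all tested genes 21.1%) and 3 lower (20.6%). The members' shares were below these background shares.

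The difference in the members' share of counts, −0.083 percentage points, was 0.021 outside the mitochondrial genome and ran from −1.45 to 1.29 with a library left out. The paralog differences ran from −0.60 to 0.43 for RPL26L1, from −0.53 to 0.077 for RPL36AL, from −0.87 to −0.54 for RPL7L1, from −0.38 to −0.11 for RPL22L1 and from 0.32 to 2.11 for RPS27L with a library left out. The log2 ratio of pseudogene to member counts differed by −0.0012, and by 0.0016 over pseudogenes with at least 10 counts, running from −0.082 to 0.079 with a library left out.

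Of the members with the lowest fold changes, RPL36, RPS29, RPL30, RPL41, RPS27 and RPL8 turned in sign only with a library left out. Some members near 0 turned with all libraries kept. RPL12 was 0.077 in the main fit and −0.039 by library totals. RPL13 was −0.033 in the main fit and 0.18 with GC correction. Without control_sh replicate 2, RPL36 was 0.53, RPS29 0.53, RPL30 0.52, RPL41 0.43, RPS27 0.68 and RPL8 0.41, and with GC correction 0.39, 0.62, 0.52, 0.47, 0.75 and 0.20. Without control_sh replicate 1 they were −1.17, −1.16, −0.996, −0.94, −0.93 and −0.78, all called. RPL8 was 0.043 without RBM25_sh replicate 1 and 0.059 with GC correction. RPS27L stayed between 0.81 and 1.39 with a library left out. The causes were not tested. With 2 libraries per group, no exact test can reach 0.05.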

Other observations

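Of the 78 tested pseudogenes named for a member, edgeR called none higher and 2 lower in RBM25_sh, a share near the 2.40% of all tested genes called lower. RPS10P7, a transcribed pseudogene on chromosome 1, had 20 and 19 counts in RBM25_sh libraries, against 119 and 108 counts in control_sh libraries, with a log2 fold change of −2.40 ± 0.40 and an edgeR adjusted p of 0.0191. It was called with each library left out in turn and after GC correction. Its counts were below those of RPS10 in both RBM25_sh libraries and 259% and 220% of them in control_sh libraries, and RPS10 itself had 41 and 38 counts in RBM25_sh libraries and 46 and 49 counts in control_sh libraries. RPSAP44, on chromosome 6, had no counts in RBM25_sh libraries, against 19 and 17 counts in control_sh libraries (edgeR adjusted p = 0.0347). Its adjusted p was 0.127 without RBM25_sh replicate 1 and 0.109 without RBM25_sh replicate 2.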
